A study of Mus musculus with 2 samples.

Results

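The interferon response and antigen presentation genes described here are 34 genes of 18193 named on the array, chosen by gene symbol from a fixed list. They are 6 transcription factors, 17 interferon-induced genes, 6 genes of class I antigen presentation and 5 of class II. Every probe set that the platform annotation gives to 1 of these symbols alone was taken, which found 69 probe sets for 33 genes among 34945 probe sets of a single symbol. Isg15 had no such probe set and has no value here. Liver RNA came from male 129SvEJ mice, 8 weeks old, either wild type or pparalpha -/- (Ppara-null). Ppara encodes the nuclear receptor of liver that fenofibrate activates, and how the gene was disrupted is not stated in the labels. Both genotypes ate chow with 0.2% fenofibrate for 7 days, so the drug is shared by both groups and the contrast is between genotypes under treatment. RNA of 3 mice was pooled per genotype and each pool was measured on 1 array, so no value has a replicate check and no test was possible. Whole liver RNA holds transcripts of hepatocytes and of all other resident cells, and fewer cells of a type cannot be told apart from less RNA per cell.

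Interferons are cytokines, and those of type I are made after the sensing of viral or damaged nucleic acid. Type I interferon acts through a receptor, Jak kinases and a complex with Stat2 and Irf9 that binds the interferon-stimulated response element (ISRE) of its target genes, whereas interferon gamma acts on the gamma-activated site (GAS). Class I molecules present peptides from inside nearly all cells to CD8 T cells, and class II molecules present ingested material on macrophages, dendritic cells and B cells. In liver, hepatocytes carry class I, and class II is found mainly on Kupffer cells and other antigen-presenting cells.

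Promoter sequence from RefSeq, build GRCm38.p6, was available for 29 of the 34 genes as windows of 300 bases, 250 before and 50 after the start of transcription. The ISRE was searched as GAAANNGAAA and the GAS as TTCNNNGAA, on both strands. Of 27025 genes with a window, 1079 (3.99%) held the ISRE letters and 2582 (9.55%) the GAS letters. Among the members, 12 of 16 interferon-induced genes with a window held the ISRE letters, as did Stat2 alone of the 6 factors and B2m alone of 7 antigen presentation genes with a window. The GAS letters stood in 7 of the 29 genes, and they overlapped an ISRE match in Bst2 and Ifitm3. The windows of Usp18, Tap2, H2-Ab1, Cd74 and Ciita were not used here. Stretches of 4 genes are shown because Ifit1, Ifit3 and Ifitm3 are the members with an ISRE match that were at least 2-fold apart between the arrays, and B2m is the antigen presentation gene with one. Each runs 5′ to 3′ on the strand of its gene over the 180 bases before the start, and for Ifitm3 also over the first 29 bases after it. Capitals mark the ISRE letters, on either strand.
Ifit1 (chr19:34640709-34640888, plus strand): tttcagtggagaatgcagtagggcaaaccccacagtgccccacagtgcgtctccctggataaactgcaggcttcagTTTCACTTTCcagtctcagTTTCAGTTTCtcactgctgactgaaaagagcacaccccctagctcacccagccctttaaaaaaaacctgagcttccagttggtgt
Ifit3 (chr19:34583349-34583528, plus strand): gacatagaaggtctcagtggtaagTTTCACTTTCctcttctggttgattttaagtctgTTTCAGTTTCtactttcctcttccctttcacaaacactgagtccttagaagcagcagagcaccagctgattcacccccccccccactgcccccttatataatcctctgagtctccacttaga
Ifitm3 (chr7:141010716-141010924, minus strand): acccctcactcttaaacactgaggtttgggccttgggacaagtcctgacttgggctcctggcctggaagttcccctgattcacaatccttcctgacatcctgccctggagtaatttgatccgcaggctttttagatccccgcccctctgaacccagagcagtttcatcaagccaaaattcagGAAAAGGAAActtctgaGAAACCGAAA
B2m (chr2:122147507-122147686, plus strand): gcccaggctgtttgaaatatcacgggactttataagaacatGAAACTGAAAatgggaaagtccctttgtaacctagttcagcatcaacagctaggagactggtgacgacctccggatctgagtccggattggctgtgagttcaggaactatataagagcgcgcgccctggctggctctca
In Ifit1 the matches began 104 and 85 bases before the start, in Ifit3 156 and 122 bases before it, and in B2m 139 bases before it. In Ifitm3 they began at bases 3 and 20 of the transcript. A match describes letters in this window and is not evidence of binding.

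The deposited value of a probe set is a linear signal intensity. Signals under a floor, the median of all probe sets that are not controls on the array (287.8 wild type, 269.4 null), were raised to it before wild type was divided by null and log2 taken. A gene is given by its brightest probe set, is called measured if 1 or both of its signals reach the floor, and is called apart at 2-fold or more. Where 1 array lay under its floor, the fold is a bound, written as at least. Ppara, the targeted gene, gave 7957 in wild type against 3414 in null at its brightest probe set, and whether that probe set lies in the disrupted part is not known here. Of 13041 measured genes in the series, 365 (2.80%) were at least 2-fold lower in wild type and 651 (4.99%) at least 2-fold higher. Of the 10060 genes above the floor on both arrays, 225 (2.24%) were lower, 363 (3.61%) were higher and 5249 (52.2%) had a negative ratio, with a median log2 ratio of -0.02. Scaling to the hybridization controls moves every log2 ratio up by 0.38, which changes the split of 2-fold calls from 64.1% higher to 94.2% higher, so directions below are those under the deposited scaling.

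Of the 34 genes, 29 were measured and 25 were above the floor on both arrays. Ifit1, Ifit3, Ifitm3, Cxcl9 and Tap1 were at least 2-fold lower in wild type than in null, and 0 members were at least 2-fold higher. These are 5 of 29, beside 2.80% and 4.99% of all measured genes. Ifit1, Ifit3 and Tap1 were measured through the null array alone, which fixes their sign. On both arrays 2 of 25 members, Ifitm3 and Cxcl9, were at least 2-fold lower, beside 2.24% of all genes. The median log2 ratio of the 25 was -0.18. Cxcl9 and Tap1 also have probe sets that were higher in wild type. With the median over probe sets 3 members, Ifit1, Ifit3 and Ifitm3, were at least 2-fold lower, beside 2.86% of all measured genes.

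**Figure D1:**
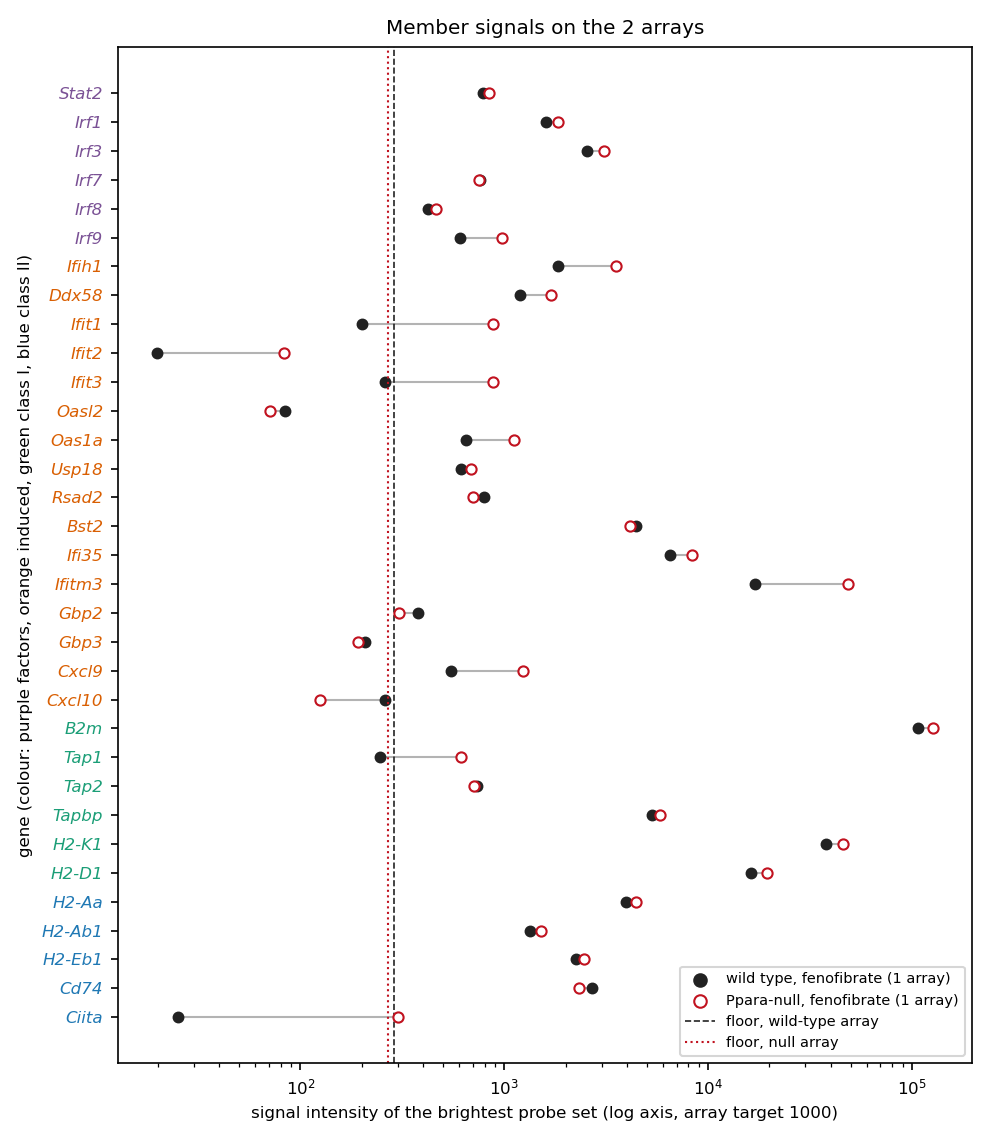
Signal of the brightest probe set of each of the 33 genes on the wild-type array (filled points) and the null array (open points), on a log axis, with the floor of each array as a dashed or dotted line. The widest gaps above the floor belong to Ifitm3 (17028 against 48504) and Cxcl9 (545.8 against 1233), while the class I and class II genes other than Tap1 and Ciita lie close together.

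Interferon-induced genes, the largest of the 4 groups, spread over the widest range. Above the floor on both arrays their log2 ratios had an SD of 0.61, beside 0.54 over all such genes. Ifitm3, a membrane protein that restricts virus entry, gave 17028 in wild type and 48504 in null at its single probe set. Ifitm3 was thus 2.85-fold lower in wild type (log2 ratio -1.51), with both signals far above the floors. Ifit1, which binds viral RNA that lacks the host cap, gave 201.2 in wild type and 878.1 in null, or at least 3.05-fold lower. Ifit3, its partner in a common complex, gave 260.9 and 881.1, or at least 3.06-fold lower. Both have a single probe set that lay under the wild-type floor, so their folds depend on where that floor is put. With floors at the 75th percentile of each array their log2 ratios were -0.12 (Ifit1) and -0.12 (Ifit3). Ifit2, from the same gene cluster, gave 19.7 and 83.5, under the floor on both arrays, and has no fold. Ifit family members are alike in sequence, and whether this array keeps near-identical copies of Ifit3 apart is not known here.

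Both cytosolic RNA sensors were lower in wild type by less than 2-fold. Ifih1, the sensor of long double-stranded RNA, gave 1831 in wild type and 3526 in null, which is 1.93-fold lower. Ddx58, the sensor of RNA with a 5′ triphosphate, gave 1199 and 1692, or 1.41-fold lower. Its other probe sets, both under the floor on at least 1 array, pointed in opposite directions at 202.3 against 362.1 and 176.7 against 35.2. Oas1a, which makes the oligoadenylate that activates RNase L, gave 649.9 in wild type and 1110 in null, or 1.71-fold lower. Oasl2, a relative in that family, was under both floors (84.4 and 71.3).

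The remaining effectors were close to equal on the arrays. Usp18, the protease that removes Isg15 from proteins and damps interferon receptor signalling, gave 613.9 in wild type and 690.2 in null. Bst2 (tetherin), which holds budding virus at the cell surface, gave 4443 and 4141. Rsad2 (viperin) gave 795.8 and 703.3 at its brightest probe set, but 264.3 against 350.5 and 219.9 against 317.3 at the other two, which lay under the wild-type floor. Ifi35 gave 6479 and 8342 at its brightest probe set and 1161 against 1481 at another, while the third gave 2554 in wild type and 1842 in null. The probe sets of Rsad2 and of Ifi35 therefore do not settle a direction. Gbp2, an interferon-induced GTPase, gave 377.1 and 306.1 at its brightest probe set and 64.4 against 168.9, under both floors, at the other. Its relative Gbp3 was under both floors (208.4 and 190.9).

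The chemokines Cxcl9 and Cxcl10, which attract activated T cells through the receptor Cxcr3, had dim signals. Cxcl9 gave 545.8 in wild type and 1233 in null, or 2.26-fold lower, at its brightest probe set. Its other probe set gave 479.1 in wild type and 118.6 in null, the opposite order. Summarised as the median of its probe sets, Cxcl9 had a log2 ratio of 0.42, so its direction depends on the probe set. Cxcl10 gave 258.6 and 125.2, under the floor on both arrays.

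**Figure D2:**
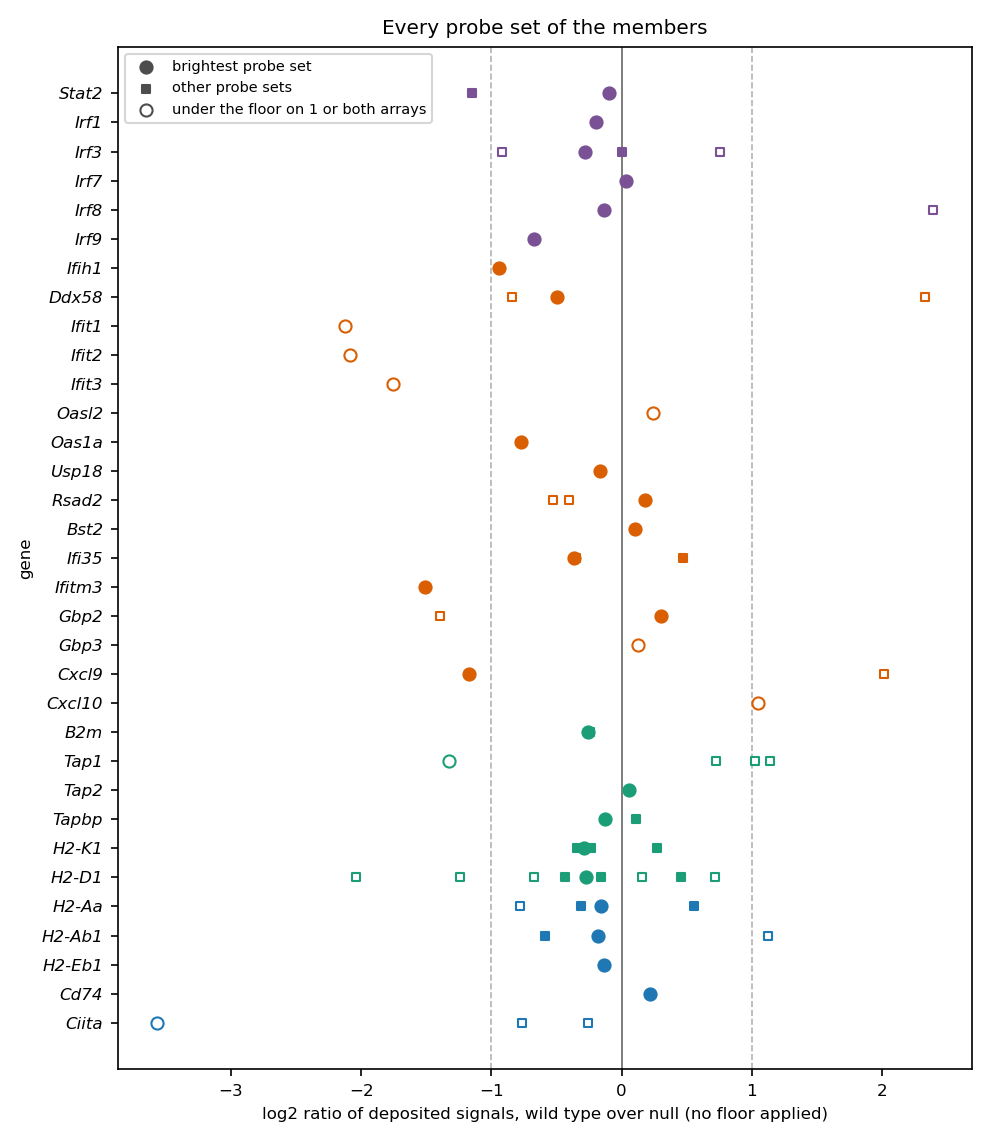
Log2 ratio of the deposited signals, wild type over null, for all 69 probe sets, with the brightest of each gene as a circle, others as squares, and open symbols where a signal was under the floor. The 4 probe sets of H2-K1 lie within 0.34 of 0, while those of Cxcl9 and Tap1 lie on both sides of 0, at -1.18 and 2.01 and between -1.33 and 1.14.

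The 6 transcription factors were all above the floor on both arrays and 0 were at least 2-fold apart, beside 2.24% lower and 3.61% higher of all such genes. Irf9, the DNA-binding part of the type I interferon complex, gave 608.4 in wild type and 971.3 in null, or 1.60-fold lower, the farthest from 0 of the 6. Its partner Stat2 gave 789.4 and 845.8 at the brightest probe set and 331.4 against 734.5 at the other. Both Stat2 probe sets were lower in wild type, by log2 ratios of -0.10 and -1.15. Irf7, which amplifies type I interferon production and is itself induced by interferon, gave 763.4 and 747.6. Irf1, a factor of the interferon gamma response, gave 1603 and 1838. Irf3, a constitutive factor activated by phosphorylation, gave 2535 and 3073 at its brightest probe set and 734.5 against 731.6 at the next, while its other two, under the floor on at least 1 array, gave 325.9 against 193.3 and 111.8 against 211.5. Irf8, a factor of macrophages and dendritic cells, gave 422.1 and 464.4, but 551.4 and 105.0 at its other probe set. The median log2 ratio of the factors was -0.17, which becomes 0.21 after scaling to the hybridization controls.

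Class I genes differed little between the arrays apart from Tap1. B2m, the light chain of every class I molecule, gave 106521 in wild type and 127139 in null, and 98344 against 116491 at its second probe set. These are 1.19-fold lower (log2 ratio -0.26) and -0.24 on the log2 scale, so the B2m probe sets were close in size. H2-K1 and H2-D1 encode class I heavy chains. H2-K1 gave 37807 and 46097 at the brightest of 4 probe sets, 3 of which were lower in wild type and 1 higher. H2-D1 gave 16182 and 19532 at the brightest of 9, and of its 4 with both signals over the floor 3 were lower and 1 higher. Class I heavy chains are alike in sequence and vary between mouse strains, so a probe set named for one may measure another. Tapbp (tapasin), which bridges empty class I molecules to the peptide transporter, gave 5299 and 5789, and 2044 against 1891 at its other probe set.

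The peptide transporter itself is made of Tap1 and Tap2. Tap2 gave 737.2 in wild type and 707.7 in null. Tap1 gave 244.5 and 612.7 at its brightest probe set, or at least 2.13-fold lower in wild type. Its 3 other probe sets were all higher in wild type, at 426.6 against 193.7, 31.7 against 15.6 and 58.3 against 35.2, and 0 of the 4 were above the floor on both arrays. With floors at the brightest Bacillus control of each array (316.5 wild type, 422.4 null) the Tap1 log2 ratio was -0.95, which is under 2-fold. The Tap1 value is therefore a single dim probe set against the others.

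Of the 4 class II genes above the floor on both arrays 0 were at least 2-fold apart, beside 2.24% lower and 3.61% higher of all such genes. H2-Aa and H2-Ab1 encode the chains of I-A, and H2-Eb1 the beta chain of I-E. H2-Aa gave 3961 in wild type and 4416 in null, H2-Ab1 1330 and 1509, and H2-Eb1 2245 and 2470. Their log2 ratios at the brightest probe set were -0.16, -0.18 and -0.14. Further H2-Aa probe sets above both floors pointed in opposite directions, at 2025 in wild type and 1375 in null (log2 ratio 0.56) and at 928.8 and 1154 (-0.31). A second H2-Ab1 probe set gave 592.1 and 891.1 (-0.59). Cd74, the invariant chain that guides class II molecules to the endosome, gave 2699 and 2318, the opposite order to the chains it escorts. Ciita, the master regulator of class II transcription, gave 25.2 and 299.5 at its brightest probe set. That null signal lay just above the floor and under the brightest Bacillus control, and the other Ciita probe sets were under both floors, so Ciita has no fold that can be read.

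Set against each other over members above the floor on both arrays, the 10 interferon-induced genes had a median log2 ratio of -0.43 and the 9 antigen presentation genes one of -0.16. The difference was -0.27. Of the interferon-induced genes 7 of 10 were negative and of the antigen presentation genes 7 of 9, beside 52.2% of all genes. At 2-fold the counts were 2 of 10 and 0 of 9 lower, beside 2.24%, and 0 higher in both, beside 3.61%. The ratios of the interferon-induced genes ran from -1.51 to 0.30 with an SD across genes of 0.61, and those of the antigen presentation genes from -0.29 to 0.22 with an SD of 0.17. The SD over all 10060 genes was 0.54. Log2 ratios of different probe sets of a gene had a pooled SD of 0.42 over 3917 genes, which describes the scatter of single probe sets in this pair of arrays and leaves out differences between mice and pools. Over all measured members, bounds included, the medians were -0.64 for 12 genes and -0.16 for 11. After scaling to the hybridization controls the median over both-array genes was -0.05 for the interferon-induced and 0.22 for the antigen presentation genes, so the sign of the latter flips.

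**Figure D3:**
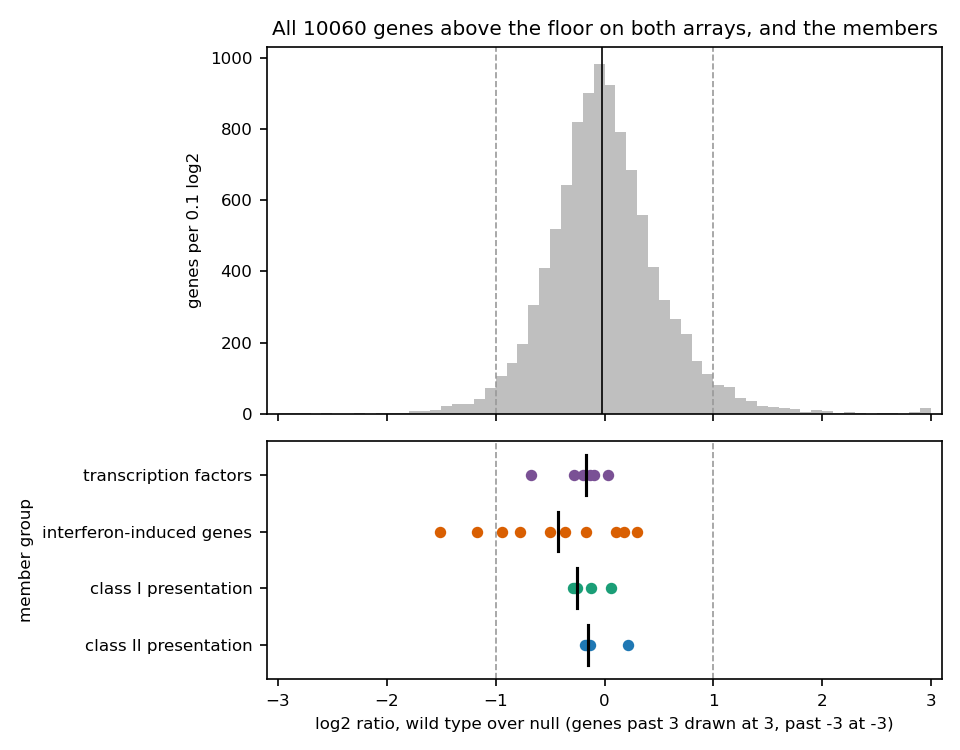
Upper panel, number of genes per 0.1 of log2 ratio (wild type over null) for the 10060 genes above the floor on both arrays, with their median as a line. Lower panel, the 25 members on the same axis by group, each point a gene and each bar a group median, under the deposited scaling. The interferon-induced genes reach from -1.51 to 0.30 and the class I genes from -0.29 to 0.06. After scaling to the hybridization controls the medians of the factors, class I and class II turn positive.

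Members with and without the ISRE letters were compared as a description. The 9 with a match and both signals above the floor had a median log2 ratio of -0.26, and the 12 without a match one of -0.23. Including bounds, the medians were -0.50 over 11 genes and -0.27 over 13. The bounds add Ifit1 and Ifit3 to the genes with a match and Tap1 to those without. All of these were measured through the null array alone, which fixes their sign, so no difference is read from the medians with bounds. Among genes with a match were Ifitm3, Ifit1, Ifit3 and Ifih1, but also Bst2, Rsad2 and Gbp2, whose log2 ratios were 0.10, 0.18 and 0.30. Of these, the Rsad2 probe sets differed in direction, and Gbp2 turned to -0.16 with floors at the brightest Bacillus control of each array.

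Of 14 measured markers of Kupffer cells and macrophages, 1 (Cd5l) was at least 2-fold lower in wild type, 1 (Ptprc) at least 2-fold higher and 12 lay within 2-fold, beside 2.80% and 4.99% of all measured genes. On both arrays 10 of 13 were negative, beside 52.2% of all genes, with a median log2 ratio of -0.44. The signal summed over all 15 markers was 23902 in wild type and 31550 in null. Cd5l, a secreted protein of resident macrophages, gave 1910 and 4052, Clec4f, a lectin that defines Kupffer cells, 1850 and 3003, and Adgre1 (F4/80) 1690 and 2605. Higher in wild type were Ptprc (CD45), common to all leukocytes, at 822.8 and 363.5, Cd14 at 732.9 and 522.4, Lyz2 at 2105 and 1897, and Cd68 at 373.5 and 204.3, the last under the floor in null. Sinusoidal endothelial markers had a median of -0.39 over the 5 genes above the floor on both arrays, 4 of them negative and Lyve1 positive (352.7 and 289.5). The sixth, Pecam1, gave 636.9 in wild type and 228.0 in null, under the floor, or at least 2.36-fold higher. The signal summed over all 6 was 11600 and 13267. All 6 measured hepatocyte markers were negative too, with a median of -0.26 (summed signal 789807 and 931085). Scaled to the hybridization controls, the 3 medians were -0.06, -0.01 and 0.12. Other lists did not all lean negative under the deposited scaling. The 2 neutrophil markers above the floor on both arrays, Ngp and Mpo, were positive (median 0.50), with null signals under the brightest Bacillus control. Of 4 such stellate cell markers 2 were negative and 2 positive (median -0.19). Lymphocyte markers were mostly not measurable. The B cell markers Cd79a and Cd79b and 5 of 8 T and NK cell markers were under both floors, as were 2 of 5 dendritic cell markers. The part of these cell types in the values above was not tested.

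Of 85 further genes of these pathways, 71 were named on the array, 64 were measured and 55 were above the floor on both arrays. At least 2-fold lower in wild type were 4 of 64, namely Irgm2, Cmpk2, Ifi27 and H2-M3, and Oas2 was higher, beside 2.80% and 4.99% of all measured genes. Cmpk2 was measured through the null array alone, which fixes its sign. On both arrays 3 of 55 were lower and 1 was higher, beside 2.24% and 3.61% of all genes. Irgm2, a GTPase of the interferon gamma response, gave 729.5 in wild type and 2295 in null, or 3.15-fold lower. Cmpk2, a mitochondrial nucleotide kinase induced by interferon, gave 81.4 and 681.0, or at least 2.37-fold lower, and its other probe set 68.9 and 510.6. Ifi27 gave 2930 and 6182, or 2.11-fold lower, and its second probe set 2764 and 5878. H2-M3, a class I molecule that presents formylated peptides, gave 368.4 and 766.5, or 2.08-fold lower. Oas2 gave 649.8 and 302.4, or 2.15-fold higher, with a null signal under the brightest Bacillus control.

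The further interferon-induced genes had a median log2 ratio of -0.31 over 23 genes, 15 of them negative, beside 52.2% of all genes. After scaling to the hybridization controls it was 0.07. Ifitm2, the neighbour in function of Ifitm3, gave 15403 in wild type and 24213 in null, or 1.57-fold lower, while Ifitm1 gave 2085 and 1809. Besides Irgm2, the immunity-related GTPases Igtp (2687 and 4324), Irgm1 (1590 and 2170) and Ifi47 (1487 and 2050) were lower in wild type by 1.61-fold, 1.36-fold and 1.38-fold, and Iigp1 (35863 and 29834) was 1.20-fold higher. Mx1 and Mx2, well-known antiviral targets of type I interferon, were under both floors. Interferon receptors and their signalling genes had a median of -0.08 over 10 genes, and 0 of 12 measured were at least 2-fold apart, beside 2.80% lower and 4.99% higher of all measured genes. Ifnar1 gave 1388 and 1356, Ifnar2 8320 and 6995, Jak1 3701 and 5112 and Jak2 1495 and 2124.

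**Figure D4:**
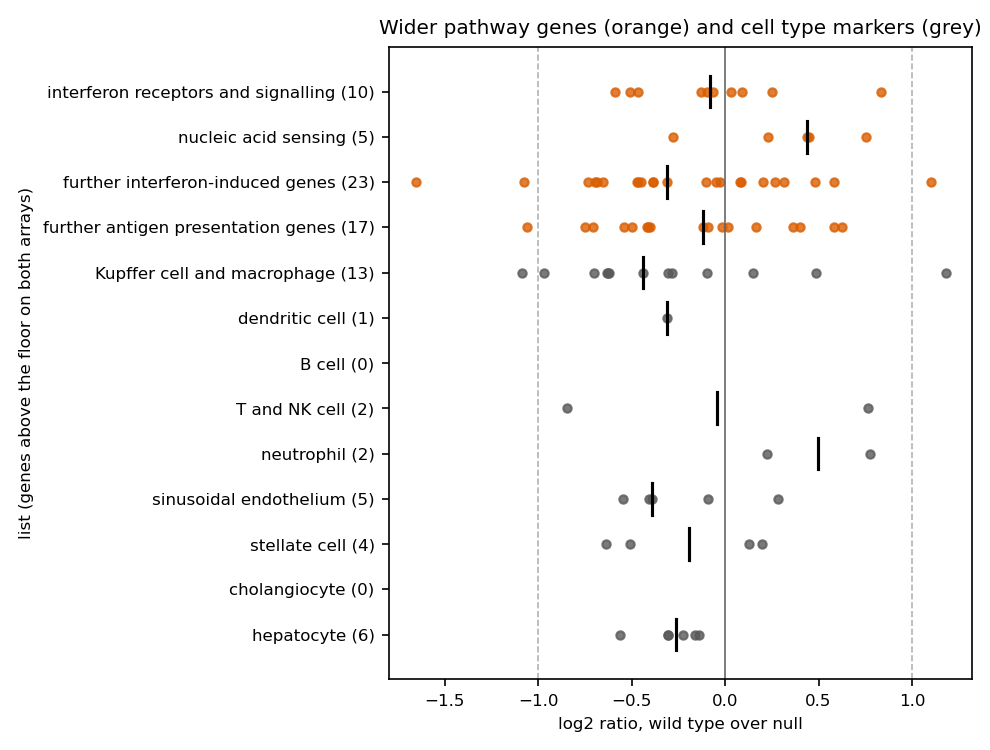
Log2 ratio, wild type over null under the deposited scaling, of the further pathway genes (orange) and cell type markers (grey) above the floor on both arrays, 1 point a gene, with the number of genes in brackets and the median as a bar. Kupffer cell and macrophage markers have a median of -0.44 and further interferon-induced genes one of -0.31, which turns to 0.07 after scaling to the hybridization controls.

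How far these medians depend on the processing can be read from the plot of list medians. Across the scalings, floors and probe set summaries run, the median of measured interferon-induced members lay between -0.64 and -0.26 and that of antigen presentation members between -0.18 and 0.22. As reported, these medians include Ifit1, Ifit3, Tap1 and Ciita, measured through the null array alone, which fixes their sign. Other floors and the median over probe sets change which members pass and on which arrays. Over members above the floor on both arrays, an alternative chosen after seeing the data, the median of the interferon-induced members lay between -0.50 and -0.05 and their difference from antigen presentation members between -0.34 and -0.15.

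**Figure D5:**
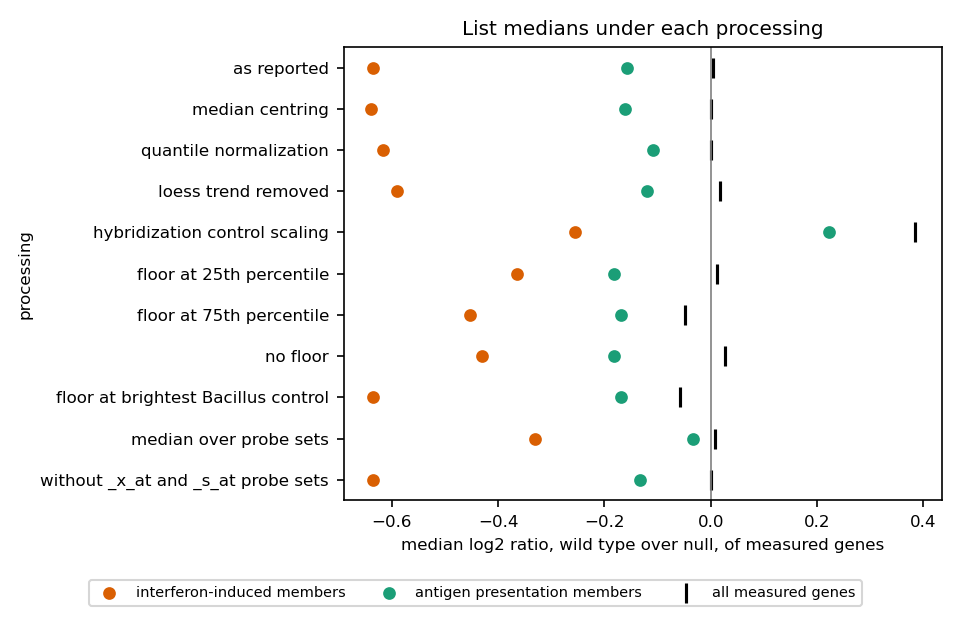
Median log2 ratio, wild type over null, of measured interferon-induced members (orange), antigen presentation members (green) and all measured genes (bars) under each processing. The medians include members measured through the null array alone (Ifit1, Ifit3, Tap1 and Ciita as reported), whose sign that fixes. As reported the medians are -0.64 and -0.16, and the latter becomes 0.22 after scaling to the hybridization controls.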

How the data were processed

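RNA was measured on 2 Affymetrix arrays of 45101 probe sets, 1 per genotype, each of a pool of 3 livers. The deposited values are signal intensities on a linear scale, which the authors computed with the Affymetrix statistical algorithm and scaled to a target of 1000 over all probe sets, per the labels. The labels used here state neither the software version nor detection calls. The number of arrays limits the precision.

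Symbols came from the platform annotation of 2016, and all 33 members with a probe set had the same symbol in RefSeq (GRCm38.p6). Probe sets of several symbols were left out. The floor, ratio and 2-fold threshold are given with the results. All members are named at their brightest probe set, with others where given and all of them in the plot of probe sets, and further genes where at least 2-fold apart or as examples of a list. Members, lists, rules and alternatives were chosen with earlier results of these data known. No test was made, since each group is 1 array. The ratio step was tested on simulated data. Alternatives covered scaling, floors, probe set summaries, thresholds and list membership. Work used Python 3.11.15, pandas 2.3.3, numpy 2.4.6 and statsmodels 0.14.6.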

Additional observations from a re-analysis of the deposited data

How the results depend on the processing

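With 0 members higher and 5 lower at 2-fold as the values reported, median centring, quantile normalization, loess and leaving out _x_at and _s_at probe sets left both counts as they were. Higher members numbered 1 of 32 (Cxcl10) with floors at the 25th percentile, beside 13.97% of all measured genes. With no floor they numbered 1 of 33 (Cxcl10), beside 17.02%. Under hybridization control scaling they numbered 0 of 29, beside 13.49%. Lower members numbered 3 under hybridization control scaling (beside 0.836% of all measured genes), 3 with the probe set median (2.86%), 1 with floors at the 75th percentile (1.33%), 6 at the 25th (9.87%), 7 with no floor (12.0%), 4 with floors at the Bacillus controls (2.58%), 8 at 1.5-fold (11.0%) and 2 at 3-fold (0.445%). The interferon-induced median of -0.64 moved to -0.26 under control scaling, -0.36 and -0.45 with floors at the 25th and 75th percentile, -0.43 with no floor, -0.33 with the median over probe sets and -0.32 with the factors added. The antigen presentation median of -0.16 reversed to 0.22 under control scaling, which shifts all ratios alike. The difference of -0.48 between these medians of measured members was -0.18 and -0.28 with floors at the 25th and 75th percentile, -0.25 without any, -0.30 with the probe set median and -0.16 with the factors added. As reported, the measured members include Ifit1, Ifit3, Tap1 and Ciita, measured through the null array alone, which fixes their sign. Over members above the floor on both arrays, added after seeing the data, the difference was -0.27 and ran from -0.34 to -0.15 under 10 alternatives. Fewer or more members pass other floors, and the cause of other moves was not tested. Cxcl9 reversed to 0.42 with the median over probe sets. Over all genes the 651 higher and 365 lower became 1759 and 109 under control scaling, 2336 and 1650 with floors at the 25th percentile, 157 and 98 at the 75th, 3096 and 2177 with no floor, and 297 and 303 with floors at the Bacillus controls. No paired analysis was possible because each genotype has 1 array.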

Other observations

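Genes that prepare peptides and fold class I molecules went in both directions. The immunoproteasome subunits Psmb8 and Psmb10 gave 1194 and 2523 in wild type against 1945 and 3563 in null, which is 1.63-fold and 1.41-fold lower, while Psmb9 gave 957.1 and 946.2 and the proteasome activator gene Psme1 8882 and 6733. The endoplasmic reticulum chaperones of class I loading, Calr, Canx and Pdia3, were 1.45-fold, 1.32-fold and 1.33-fold lower in wild type. Nlrc5, the activator of class I transcription, gave 284.1 and 507.1, under the floor in wild type. H2-Q10, a secreted class I molecule of hepatocytes, gave 72553 and 48521 (log2 ratio 0.58). Ifi30, the thiol reductase that opens disulfides of antigens for class II, gave 1559 and 2616. Over the 17 further antigen presentation genes above the floor on both arrays the median log2 ratio was -0.12, with 11 negative, beside 52.2% of all genes. After scaling to the hybridization controls the median was 0.26.

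Among regulators, Socs3, a feedback inhibitor of Jak signalling, gave 1150 in wild type and 646.4 in null, or 1.78-fold higher, and Irf5 gave 834.1 and 1253 (log2 ratio -0.59). Of the nucleic acid sensing genes, Dhx58, a relative of Ddx58 and Ifih1, gave 517.0 and 306.2, the adaptor Mavs 3596 and 2651, and Tlr7 545.7 and 399.2. Zbp1 gave 39.5 and 418.4, above the floor in null only. The null signals of Zbp1, Dhx58 and Tlr7 lay under the brightest Bacillus control (422.4). Trim21 gave 723.5 and 616.0, and Trim25 went the other way at 3422 and 4146 (log2 ratio -0.28). The median of the 5 sensing genes above the floor on both arrays was 0.44, and 0.82 after scaling to the hybridization controls.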
